A study of Caenorhabditis elegans with 2 samples.

Results

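Binding of FLH-1 within protein-coding exons was examined in embryos of Caenorhabditis elegans by chromatin immunoprecipitation followed by sequencing (ChIP-seq), which recovers the DNA held by a tagged protein. FLH-1 belongs to the small FLYWCH family of zinc finger transcription factors, which in worm embryos act in the repression of microRNA genes. Entries in a peak list are stretches where precipitated reads exceeded a control, and their summit is the position of highest read density. Coding exons are a less usual place for transcription factor peaks than promoters and enhancers, which lie outside them for the most part.

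The entries described here lay in coding exons and ranked below the reproducible, or optimal, set of 371 peaks that the irreproducible discovery rate (IDR) procedure left, which compares peak ranks between replicates. They were chosen by measured signal and by position. An entry had to be nuclear, to be among the 4000 highest signal values of the list called on the pooled reads of both replicates, and to be absent from the optimal set. Its summit had to lie more than 100 bp from every tRNA, snoRNA, snRNA and miRNA gene, outside the window from 1000 bp upstream to 200 bp downstream of every protein-coding gene's 5′ end, and inside a coding segment. This gave 570 members of 30000 pooled entries, and of the 3629 nuclear entries that held pooled ranks 372 to 4000. The remaining 6029 coding-exon entries, placed by the same rules but ranked after 4000, served as the reference.

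Both samples were biological replicates of 1 group: strain OP702, which carries the allele unc-119(tm4063) and the insertion wgIs702, collected as mixed-stage embryos of pooled sex by egg bleaching with an age label of 2 hours. Sonication broke up the chromatin, and an anti-GFP antibody pulled down the tagged protein. This insertion combines a fusion gene, flh-1::TY1::EGFP::3xFLAG, with unc-119(+), so the reads come from the tagged protein, and whole embryos give no cell type. With 1 group there is no comparison between conditions, and neither an untagged strain nor a mock pull-down was used here. The files hold no read counts, so the depth is unknown. The signal value is the authors' and was compared only within 1 list.

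4 of the strongest members with an entry in both replicates are shown as 201 bases centred on the summit. The bases are from the RefSeq genome of WBcel235 (ce11), on the coding strand and 5′ to 3′. These windows are examples and do not stand for the members at large. Collagen genes held 5.61% of members, and a run of 5 or more glycine codons spaced by 3 lay in 2 of the 538 other members. They are the member with the highest signal (nra-3), the strongest pair in collagen genes (col-105 and col-111) and a glutamine-rich exon (pqn-41), picked after their values had been seen. Capitals mark in-frame glycine codons in nra-3, col-105 and col-111, and in-frame glutamine codons in pqn-41.
nra-3, chrX:9930492-9930692, minus strand: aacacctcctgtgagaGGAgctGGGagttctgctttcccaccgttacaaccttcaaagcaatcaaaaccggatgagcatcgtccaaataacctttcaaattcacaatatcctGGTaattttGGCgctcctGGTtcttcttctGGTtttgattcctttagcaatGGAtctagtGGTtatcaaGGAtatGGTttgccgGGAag
col-105, chrIV:1358162-1358362, minus strand: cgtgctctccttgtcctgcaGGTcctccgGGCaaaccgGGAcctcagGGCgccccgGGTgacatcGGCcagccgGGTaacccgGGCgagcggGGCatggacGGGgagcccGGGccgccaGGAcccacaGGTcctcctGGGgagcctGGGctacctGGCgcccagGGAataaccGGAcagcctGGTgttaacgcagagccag
col-111, chrIV:4656139-4656339, minus strand: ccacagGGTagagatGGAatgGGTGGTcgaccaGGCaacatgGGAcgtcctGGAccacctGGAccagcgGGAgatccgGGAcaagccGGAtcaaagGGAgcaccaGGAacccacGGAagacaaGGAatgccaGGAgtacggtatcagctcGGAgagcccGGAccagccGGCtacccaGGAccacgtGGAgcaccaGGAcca
pqn-41, chrIII:1939045-1939245, plus strand: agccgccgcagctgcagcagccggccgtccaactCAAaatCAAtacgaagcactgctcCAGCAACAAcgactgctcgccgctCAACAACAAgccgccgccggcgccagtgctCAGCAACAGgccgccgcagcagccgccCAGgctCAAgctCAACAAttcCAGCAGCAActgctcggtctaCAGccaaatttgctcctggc

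The col-105 window held 19 glycine and 19 proline codons among 66 complete codons, and that of col-111 held 22 glycine and 15 proline codons among 67. In both, glycine recurred at a spacing of 3 codons through most of the window, the repeat that winds a collagen chain into a triple helix. The nra-3 window held 11 glycine codons of 66 without that run, and pqn-41, a gene for a glutamine-rich protein of the prion-like class, held 19 glutamine codons of 66. GC content over the 101 bp around the summit was 39.6% in nra-3, 77.2% in col-105, 60.4% in col-111 and 68.3% in pqn-41. The strongest member was therefore AT-rich and the next collagen entry was the most GC-rich of all 570.

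Signal values in the pooled list ran from 47.0 to 85.8 with a median of 52.6, all below the weakest nuclear optimal peak at 90.3. These values chose the members and are given as a description. Just inside rank 4000 lay hcp-6, a condensin subunit gene, at 47.083, ccch-3 at 47.056 and F37C4.4 at 47.048. Just outside lay cpz-2 at 46.988, hpo-27 at 46.983 and str-113 at 46.982, so the limit fell in a continuous run of values.

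Coding exons were rare among strong entries and common among weak ones. They held 2 of 364 nuclear optimal peaks (0.549%), 48 of 629 entries at ranks 372 to 1000 (7.63%), 16% at ranks 1001 to 2000, 17.5% at 2001 to 3000 and 18.7% at 3001 to 4000. The share went on to 23.65% (95% exact interval 22.8 to 24.5) at ranks 20001 to 30000. Coding bases that meet the location rule make up 20.01% of the nuclear genome, so the share lay below the genome's down to about rank 4000 and above it from rank 6001 on. Over ranks 372 to 4000 the same list held 1042 intron, 1016 promoter, 736 intergenic and 162 small RNA gene entries. The 2 optimal peaks of this location were in the last coding exon of dos-3, which encodes a Notch co-ligand with a DOS motif, and in swsn-1, a SWI/SNF chromatin remodelling subunit. The dos-3 peak had a signal value of 166.8 and stood at rank 131 in replicate 1 and rank 98 in replicate 2. The swsn-1 peak had a signal value of 95.7 and stood at rank 317 in replicate 1, with no replicate 2 summit within 100 bp.

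**Figure D1:**
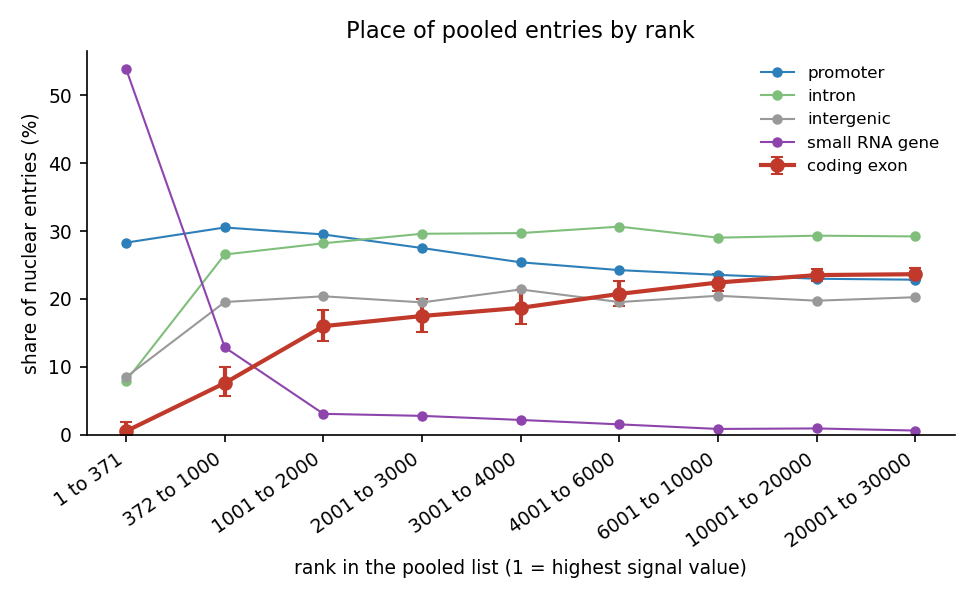
Share of nuclear entries (%) by place, against rank class in the pooled list; bars on the coding-exon line are exact 95% intervals. The coding-exon share climbs from 0.549% in the optimal ranks to 23.65% in the last class, while small RNA genes go the other way.

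Support in the replicates was counted as a replicate summit within 100 bp. Both replicate lists held such an entry for 338 of 570 members (59.3%, 95% exact interval 55.1 to 63.4), against a background of 61.8% for all 3629 entries of the same ranks. Replicate 1 held one for 525 members (background 91.0%) and replicate 2 for 375 (background 69.0%), while 187 members had it in replicate 1 and not in replicate 2, 37 the reverse, and 8 had none. These shares lay near the background. The share in both was 37.9% with a distance of 50 bp, and 27.4% and 28.3% when the members were chosen from the list of replicate 1 or replicate 2 alone. An entry chosen from a replicate's own list has support there by definition. The shares of 27.4% and 28.3% thus count support in the other replicate and are not the same measure as 59.3%. No background over all entries is given for these alternatives. Since the pooled reads contain both replicates, the support is not independent of the choice of members. Among other places at these ranks, support in both was 61.1% for promoter, 59.4% for intron, 65.4% for intergenic and 77.8% for small RNA gene entries. Of the coding-exon entries ranked after 4000, 14.9% had support in both.

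Support at a high rank in both lists followed the pooled rank. An entry among the 4000 highest of both replicate lists was found for 43 members (7.54%, 5.51 to 10.03) against a background of 12.5%, and for 13.5% (12.3 to 14.7) of the 3059 other entries of these ranks. Members sat lower within these ranks than the other entries, and within each of 4 rank classes the intervals overlapped. At ranks 372 to 1000 it was 21 of 48 members (43.75%, 29.5 to 58.8) against 47.3% of other entries, and at ranks 1001 to 2000 it was 20 of 160 (12.5%, 7.81 to 18.6) against 13.2%. From rank 2001 on, 1 member of 175 and 1 of 187 had it, against 22 of 825 and 4 of 813 other entries. The median replicate rank of the 338 was 4554 in replicate 1 and 6232 in replicate 2, and 1 of them lay within the first 1000 of both. Over these 338 sites the log2 signal values of the replicates had a Pearson r of -0.24 (Spearman -0.25). The points were selected on a pooled value to which both replicates contribute, and the part of that choice in the negative sign was not tested. Taken each alone, with entries near optimal summits left out, the replicate lists gave 603 and 717 coding-exon entries among their 4000 highest. Of these, 38 (6.30%, 4.50 to 8.55) and 41 (5.72%, 4.13 to 7.68) had an entry of the other replicate's 4000 highest within 100 bp. The matching shares were 12.4% and 13.0% for promoters, 11.7% and 12.1% for introns, 12.7% and 12.8% for intergenic entries, 9.82% and 8.08% for other exons, and 38.8% and 43.0% for small RNA genes. Coding exons thus had the lowest share in each replicate, and their intervals did not reach those of promoters, introns or intergenic entries. These shares were not compared at equal rank.

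**Figure D2:**
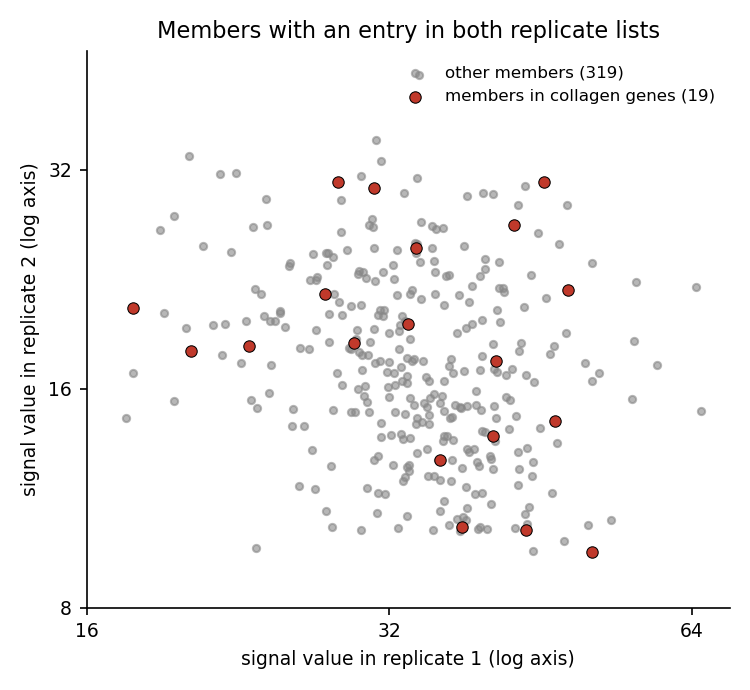
Signal value in replicate 1 against replicate 2, both on log axes, for the 338 members with an entry in both lists; filled red points are the 19 in collagen genes. The cloud slopes downward (Pearson r -0.24 on log2 values), and collagen members are spread through it.

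The strongest members fell in genes of unlike function. nra-3, named for association with nicotinic receptors, had a pooled signal value of 85.8 (rank 420), 64.6 in replicate 1 (rank 354) and 22.1 in replicate 2 (rank 2258). The collagen col-105 followed at 82.5 (rank 471), with 45.6 in replicate 1 (rank 1241) and 30.8 in replicate 2 (rank 532). Y65B4A.8 and Y73E7A.8 stood high in replicate 1, at ranks 461 and 343, but at ranks 6233 and 10300 in replicate 2. These pairs show how unlike the replicate ranks of single members could be. abu-10, a gene named for activation when the unfolded protein response is blocked, went the other way, at rank 4444 in replicate 1 and rank 199 in replicate 2. Both lists held an entry for 36 of the 48 members at ranks 372 to 1000. No share over all entries of that rank class is given. The 20 strongest lay in this class, and 16 of them had an entry in both lists, near the share of the class. The exceptions were col-19 (pooled 76.8), pygo-1 (74.3), which encodes a pygopus-type Wnt cofactor, F46H5.3 (72.7) and gcn-1 (71.9), a regulator of translation under amino acid starvation, each present in replicate 1 and without a replicate 2 summit within 100 bp.

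Further hosts among those 20 were lin-66, let-526 and ptp-3. lin-66, a heterochronic gene that acts on lin-28 in the timing of larval development, had 74.8 in the pooled list, 56.3 in replicate 1 and 22.4 in replicate 2. let-526, a subunit gene of the SWI/SNF remodelling complex, had 74.99, 42.9 and 28.6 in the same order, and ptp-3, a receptor tyrosine phosphatase of the LAR type that works in axon guidance and epidermal morphogenesis, had 71.9, 40.6 and 29.7. All 3 lay in the 4000 highest of both lists. The lectin gene clec-78 held a pair of members 12164 bp apart, at 77.8 and 75.5 in the pooled list, 50.9 and 48.1 in replicate 1, and 23.8 and 28.6 in replicate 2. The collagen col-111 had 76.5, 48.2 and 21.8 in the pooled list and replicates 1 and 2, and pqn-41 had 76.4, 43.7 and 30.4. The remaining hosts of the 20 strongest were C04A2.15, gei-4, D1044.7 and ubxn-3, with pooled values of 77.9, 76.9, 74.4 and 71.5 and an entry in both lists.

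The 570 members lay in 537 host genes, of which 27 held 2 members and 3 held 3. hmr-1, the worm classical cadherin, held members at pooled values of 70.1, 62.5 and 51.5. They lay near the 3′ end of a gene of 58913 bp, at 91.7%, 96.8% and 94.2% of its length in the same order. The cadherin gene cdh-12 held members at 61.6, 55.8 and 53.9, and hpo-36 held 3 between 60.3 and 50.5. The 27 others included chromatin genes (set-16, a histone H3K4 methyltransferase; chd-7, a chromodomain remodeller; zfp-1, an AF10-type chromatin factor), kinase and signalling genes (mbk-2, dsh-2, gcy-21), the junction gene afd-1, the myosin heavy chain unc-54, and gtf-2F1, a general transcription factor. The rest of them were F35A5.1, K11D2.4, W02H5.2, Y69H2.10, acs-19, clec-78, eri-5, gcn-1, gei-1, gei-4, lin-66, mlt-11, nra-3, polg-1, pqe-1, rocf-1, sre-5 and sup-26. In 12 of the 30 hosts the summits were under 464 bp apart. Every member was 464 bp long, so such neighbours share reads and are not separate observations. The entry of 217 members (38.1%) overlapped another pooled entry, with a median summit distance of 212 bp, and in 24 of these the nearest entry was the stronger. This overlap was not counted over other pooled entries, so the share of 38.1% is not a trait of coding exons.

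9 members lay within 1000 bp of an optimal summit (1.58%, against 0.531% of the coding-exon entries ranked after 4000). Leaving out entries this close kept 561 of 570 members and 3542 of all 3629 entries of the same ranks. The coding-exon share was then 15.8%, against 15.7% with them, so such closeness was not particular to members. Of the 9, 7 overlapped the optimal entry, at 199 to 212 bp between summits. These 7 were in C04A2.15, cye-1 (cyclin E), spe-9 (a sperm surface protein needed for fertilization), dos-3, brd-1 (the BARD1 partner of BRC-1), osm-9 (a sensory TRPV channel) and F33G12.3. Their reads are shared with a reproducible peak. flh-1 itself and unc-119 held no member. The nearest was 50889 bp away for flh-1, in F49C12.9, and 12700 bp away for unc-119, in the homeobox gene vab-7.

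Collagen genes were the most frequent of 23 gene lists among the hosts. Collagens of the worm are mostly cuticle proteins secreted by the epidermis, with a short triple-helical chain encoded in 1 or a few exons, and a few are basement membrane collagens. The list held 32 members in 32 genes, 5.61% of members (95% exact interval 3.87 to 7.83), against 92 of 6029 coding-exon entries ranked after 4000 (1.53%, 1.23 to 1.87). Of 176 collagen genes with eligible coding bases, 18.2% had a member, against 2.92% of all 18417 genes with such bases. Lists of long genes had higher shares of genes with a member, at 40% of epidermis genes, 30% of matrix and adhesion genes and 20% of other body wall muscle genes. Per 100 kb of eligible coding sequence there were 22.3 members for collagens, 17.4 for ribosomal proteins (2 members), 7.53 for epidermis genes and 2.84 for all genes. The entries ranked after 4000 were also denser in collagens, at 64.2 per 100 kb against 30.04 for all genes. The collagen share was 10.4% at ranks 372 to 1000, between 4.28% and 6.29% in the next 3 classes, between 1.90% and 2.17% in the classes from there to rank 20000, and 0.803% after that. The strongest were col-105 (82.5), col-19 (76.8), col-111 (76.5), col-69 (70.9), col-152 (64.6) and col-183 (62.9). Further down were dpy-10 (60.3), bli-1 (56.9), sqt-3 (55.7), rol-8 (53.1) and dpy-8 (50.2), cuticle collagens whose mutants change body shape or blister, and emb-9 (56.4) and let-2 (52.8), the type IV collagens of basement membranes.

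Both replicate lists held an entry for 19 of the 32 collagen members (59.4%, 40.6 to 76.3), beside 59.3% of all members, and 3 were among the 4000 highest of both, col-105, col-111 and col-69. col-152 stood at rank 6765 in replicate 1 and 569 in replicate 2, and bli-1 at rank 803 in replicate 1 and 29477 in replicate 2. The class as a whole was more frequent at the top of each replicate list taken alone. The pooled reads contain both replicates and the gene lists were chosen with earlier results known. These shares are therefore a description and not independent support. Collagens held 26 of 603 coding-exon entries inside rank 4000 of replicate 1 (4.31%, 2.84 to 6.25) and 1.36% (1.09 to 1.68) below it, and 29 of 717 in replicate 2 (4.04%, 2.73 to 5.76) and 1.49% (1.20 to 1.84) below it. At the level of genes, 6 collagen genes (col-105, col-111, col-183, col-69, dpy-17 and emb-9) had an entry inside rank 4000 of both, 23.1% of those of replicate 1 and 21.4% of those of replicate 2. Over all hosts of coding-exon entries, 111 genes were shared, 19.7% of those of replicate 1 and 16.9% of those of replicate 2. A shared gene need not be a shared site. For the members in col-183 and emb-9 the nearest replicate 2 summits were 144 and 727 bp away.

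**Figure D3:**
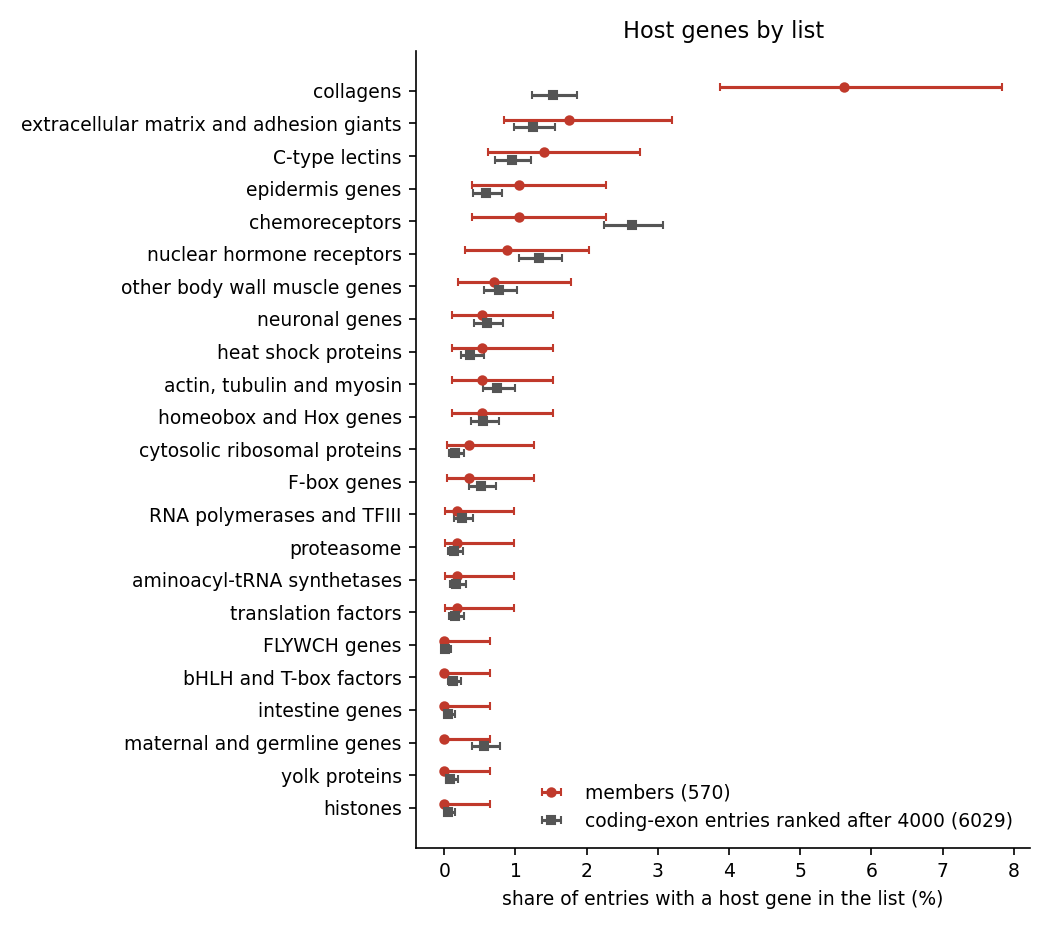
Share of entries (%) whose host gene is in each of 23 lists, for the 570 members (circles) and the 6029 coding-exon entries ranked after 4000 (squares), with exact 95% intervals. Collagens stand at 5.61% against 1.53%. Chemoreceptors, with 6 members, stand at 1.05% against 2.64%, with intervals that just overlap.

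The repeat seen in col-105 and col-111 was general among these hosts. A run of 5 or more glycine codons spaced by 3 lay within the 101 bp window of 26 of 32 collagen members (81.3%), with a median run of 8, of 66 of 92 collagen entries ranked after 4000 (71.7%), and of 2 of the 538 other members. The exon holding the summit had a median length of 744 bp in collagen members and 328 bp in the others. No 51 bp window at a member's summit had a second exact copy in the genome, which allows a share of up to 0.645%. Of coding-exon entries ranked after 4000, 42 of 6029 windows had one (0.697%, 0.503 to 0.940), so the intervals overlapped.

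The other lists held few members each, and their intervals overlapped those of the coding-exon entries ranked after 4000. Matrix and adhesion genes held 10 (1.75% against 1.24%), in cdh-12, hmr-1, unc-52 (perlecan), dig-1, mua-3 and lam-1 (laminin beta). C-type lectins, carbohydrate-binding proteins many of which act in gut immunity, held 8 (1.40% against 0.945%), in clec-78 (with 2), clec-114, clec-92, clec-164, clec-240, clec-175 and clec-261, and epidermis genes 6 (1.05% against 0.581%), namely vab-10 (a spectraplakin), vab-19, elt-3 (a GATA factor), mup-4, let-805 and noah-2. Chemoreceptors, a large family of small membrane proteins used mainly in neurons, held 6 (1.05%, 0.387 to 2.28) against 2.64% (2.25 to 3.07), in sre-5 (with 2), srd-70, srbc-23, srw-85 and sre-48. There were 5 in nuclear hormone receptors (nhr-119, nhr-1, nhr-80, nhr-70 and nhr-56), 4 in body wall muscle genes (lev-11, ttn-1, unc-89 and unc-52, which is also among the matrix genes), and 3 each in actin, tubulin and myosin genes (unc-54 with 2, and mlc-3), neuronal genes (unc-17, cha-1 and unc-44), homeobox genes (ceh-100, ttx-3 and vab-7) and heat shock protein genes (hsp-110, hsp-90 and dnj-27). Ribosomal proteins (rps-7 and rps-15) and F-box genes (fbxb-106 and fbxc-52) held 2 each, and erfa-3, yars-1, rpn-11 and ama-1 stood alone for translation factors, aminoacyl-tRNA synthetases, the proteasome and RNA polymerases. Histones, yolk proteins, intestine, maternal and germline, bHLH and T-box, and FLYWCH genes held none. For maternal and germline genes 34 of the 6029 entries ranked after 4000 (0.564%) were in the list, and 0 of 570 allows a share of up to 0.645%.

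Members were richer in GC than the coding-exon entries ranked after 4000. Median GC content of the 101 bp window was 47.5% (quartiles 43.6 to 53.5) against 44.6%. A GC content of 55% or more was found in 105 members (18.4%, 15.3 to 21.9) against 7.78% (7.12 to 8.48), and 40% or less in 12.6% against 26.6%. At ranks 372 to 1000 the median was 53.0%. The same order held outside coding exons, with medians of 44.6% against 39.6% in promoters, 43.6% against 38.6% in introns and 44.6% against 39.6% in intergenic entries, and the 364 optimal peaks had a median of 51.5%. GC content thus moved with signal in these places, and its part in which exons were listed was not tested. Within ranks 372 to 4000 the medians of other exons (38.1%, 39.1%, 40.6% and 39.6% by rank class) and of small RNA genes (47.5%, 45.5%, 49.5% and 48.5%) did not fall with rank. Without collagens the members' median was 47.5% as before. Collagen members had a median GC content of 59.9%, and collagen entries ranked after 4000 had 55.9%. Within entries of 55% GC or more, collagens were 25 of 105 members (23.8%) and 52 of 469 entries ranked after 4000 (11.1%). At 60% GC or more they were 16 of 44 (36.4%, 22.4 to 52.2) and 31 of 146 (21.2%, 14.9 to 28.8), with intervals that overlapped.

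**Figure D4:**
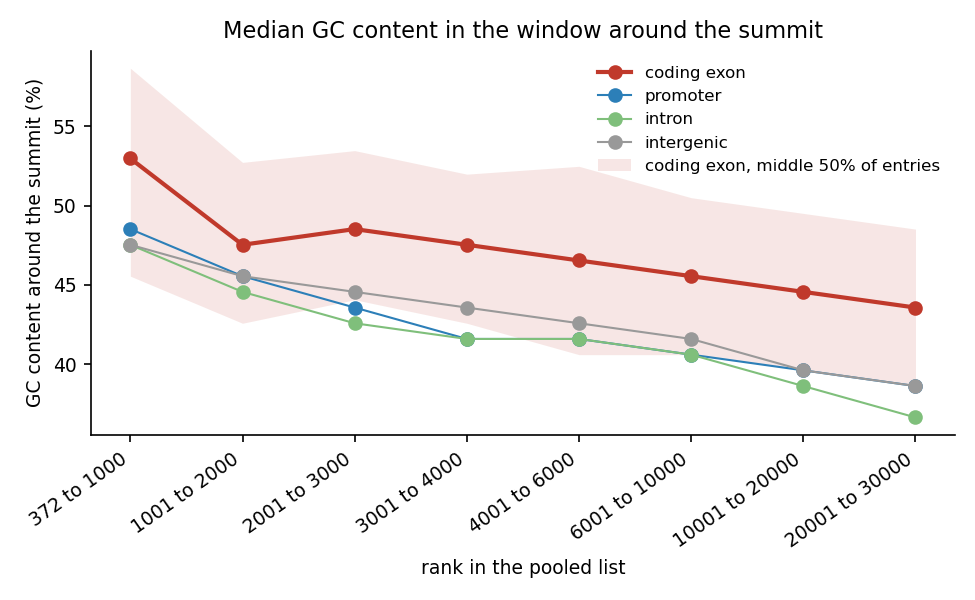
Median GC content (%) of 101 bp around the summit against rank class of the pooled list, by place; the band is the middle 50% of coding-exon entries. The optimal ranks, 1 to 371, are left out. Each of the 4 lines is lower in the last class than at ranks 372 to 1000, the coding-exon line at 43.6% against 53.0%.

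The codons around the summits also differed. Outside collagens, glycine was 7.05% of codons against 5.91%, proline 7.63% against 5.98%, glutamine 5.69% against 4.47% and alanine 8.32% against 7.28%, in members and in non-collagen entries ranked after 4000. Other amino acids were lower in members, among them leucine (7.34% against 8.12%), phenylalanine (3.40% against 4.14%), valine (5.49% against 6.15%), isoleucine (4.68% against 5.33%) and lysine (5.38% against 5.97%). No intervals are given for codons. Over all members, GC was 57.6% at the first codon position against 53.5%, 46.9% against 42.3% at the second and 44.6% against 42.8% at the third. Outside collagens it was 56.2% against 53.1%, 45.3% against 41.9% and 45.5% against 43.0%, so the gaps at the 3 positions were nearly even there. In collagen members GC was 30.05% at the third position, and glycine was 28.1% and proline 21.6% of codons.

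Members were spread along their hosts. The median summit lay 59.5% of the way from the 5′ end to the 3′ end (56.5% in entries ranked after 4000), where the excluded promoter window removes the start of every gene. The first coding exon held 7.19% and the last 17.2%, against 5.71% and 14.6%. Host genes had a median length of 4812 bp against 4387 bp, and the exon with the summit 346 bp against 310 bp. The summit lay under 50 bp from an exon edge in 31.9% against 37.8%. For 56 members (9.82% against 7.08%) the summit fell in the promoter window of an internal transcript start, and for 483 (84.7% against 88.3%) every transcript across the summit was coding there. The label of coding exon therefore rests on some of the transcripts across the summit for the other members.

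**Figure D5:**
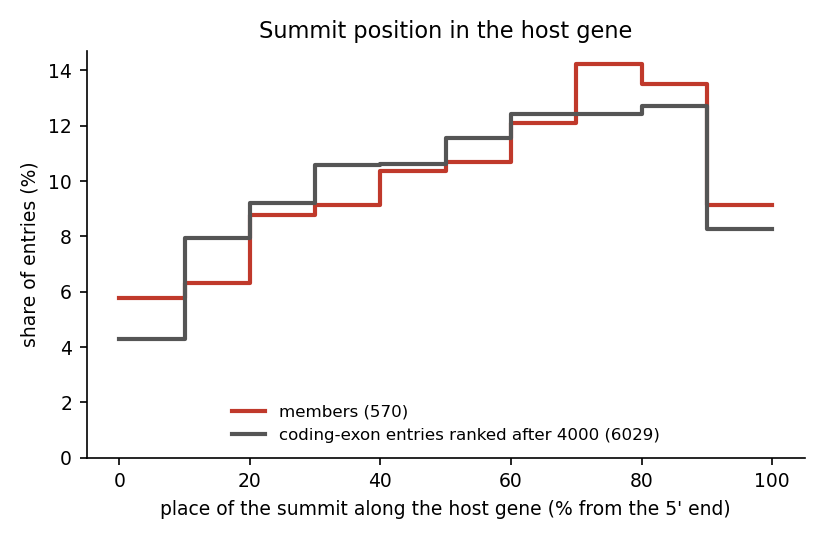
Share of entries (%) in equal steps along the host gene, from the 5′ end to the 3′ end, for the 570 members and the 6029 coding-exon entries ranked after 4000. Both lines are low at the start, which the promoter rule removes, and both peak between 70% and 90%.

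Chromosome III carried 126 members (22.1%, 95% exact interval 18.8 to 25.7) against 16.5% of entries ranked after 4000 and 14.4% of eligible coding bases. Chromosome X carried 69 (12.1%, 9.54 to 15.1) against 15.3% and 15.5%, and V carried 93 (16.3%, 13.4 to 19.6) against 19.3% and 21.8%. For X and V the intervals overlapped those of the entries ranked after 4000 (14.4 to 16.2 and 18.3 to 20.3). Chromosomes I, II and IV carried 17%, 16.7% and 15.8%, against 17.2%, 17.2% and 14.6%.

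Short words were counted on both strands in the 101 bp windows, without regard to overlap between words. GTTCGA, part of the internal promoter of tRNA genes, was in 4.56% of members and 5.09% of entries ranked after 4000, and CGAACC, whose reverse complement overlaps it by all but 1 base, in 3.33% and 2.90%. GAGAGA was in 7.54% (5.51 to 10.03) and 5.24% (4.69 to 5.83), and GGCGCC in 3.16% (1.88 to 4.95) and 1.38% (1.10 to 1.70). GGGCGG was in 3.16% and 2.14%, GCGCGC in 0.526% and 0.249%, and the AT-rich ATTTTT in 15.4% and 18.2%. ACCACT (5.09% and 4.30%), CAGCTG (4.56% and 4.01%), TTGCAA (3.33% and 4.28%), TGATAA (6.32% and 7.60%) and TGCGTC (2.28% and 2.17%) completed the 12. Of these words, GGCGCC had intervals that did not overlap, and its letters are GC alone.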

How the data were processed

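The members and all lists and words were chosen with earlier results of these data known. Peak lists for each replicate, for pooled reads and for the optimal set were made by the authors from ce11 alignments against a control, per the labels' description files. The sources used here do not name the aligner, the caller or the IDR threshold. Each list deposited by the authors gives a signal value per entry, used for rank, and a −log10 q value that was not used. Depth is unknown, and n is 2 replicates of 1 group, so no test was run. Summits (1-based) were placed with Ensembl release 115 genes and the RefSeq WBcel235 genome in Python 3.11.15, NumPy 2.4.6, pandas 2.3.3 and SciPy 1.17.1; plots used Matplotlib 3.10.9. Placement was checked on simulated entries. Intervals of shares are exact (Clopper-Pearson, 95%) and treat entries as independent. Named were hosts of the 20 strongest members, hosts with 2 or more members, hosts in a list (the 6 strongest if more), the members beside the rank limit, coding-exon optimal peaks, flh-1 and unc-119; members near optimal peaks and other list members were named after their values were seen. Alternatives changed the rank limit, promoter, support and GC windows, transcripts and replicates.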

Additional observations from a re-analysis of the deposited data

How the results depend on the processing

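Of 93 alternative values for 9 results, 65 stayed within the error of the main value or, for the number of members, within 1.5 times of it (475 with promoters reaching 2000 bp upstream, 483 coding in every transcript, 717 from replicate 2 alone). The median exon length, the chromosome X share and the collagen share stayed so under all 10 alternatives each; the collagen share was added after its count had been seen. The error was the exact 95% interval for shares and, for medians, the standard deviation of the values from the 2 replicate lists alone. That band was narrow for the median place (59.39% to 59.60%) and wide for the median exon length (315 to 377 bp). The count of values within the error therefore does not rank the results by stability. No paired analysis was possible because the samples form 1 group. Leaving out a replicate means using the other's list alone. A rank limit of 2000 gave 208 members and one of 6000 gave 985; support in both lists was then 63.9% and 52.8%, the coding-exon share 12.8% and 17.5%, the median place 53.0% and 57.4%, and the share in the 4000 highest of both lists 19.7% and 4.57%. Median GC was 48.5% at rank limit 2000 and 46.0% with 150 bp to each side. Support in both fell to 37.9% within 50 bp and reached 79.3% within 200 bp. The coding-exon share was 13.1% with promoters reaching 2000 bp upstream, 17% with 500 bp, 14.2% with promoters of every transcript and 13.3% where every transcript had to be coding. The median place was 59.8% with the 500 bp promoter and with promoters of every transcript, 59.7% at a small RNA distance of 500 bp and 59.3% where every transcript had to be coding. Without 1 replicate, support ranged from 27.4% to 28.3%, which counts the other replicate only, since support in the list of choice is given by definition. The coding-exon share then ranged from 16.6% to 19.7%, median GC from 46.5% to 47.5%, and the median place from 57.4% to 57.5%. The cause of these shifts was not tested. Depth is unknown, entries of 464 bp overlap, and no untagged control was analysed here.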
